A study of Mus musculus with 2 samples.

Results

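The SR and hnRNP splicing regulators described here are 40 genes among 21461 nuclear protein-coding genes and 43346 Ensembl genes of the deposited tables. They were chosen by symbol alone: 11 protein-coding genes whose symbol starts with Srsf, 20 whose symbol starts with Hnrnp, and 9 further regulators, namely Tra2a, Tra2b, Mbnl1, Mbnl2, Rbfox2, Sf3b1, Ptbp1, Celf1 and Pcbp1. The study measured total RNA, after removal of ribosomal RNA, in erythroblasts, which are the nucleated precursors of red blood cells. The only group holds 2 biological replicates of primary bone marrow cells from male adult C57BL/6J mice, 5 to 6 weeks old, with no treatment named and 100 ng of RNA in each ScriptSeq library. Both replicates point to 1 shared donor record, and a share of their spread could thus be technical. The size range given for the libraries differs, with 200 to 764 for replicate 1 and 138 to 1000 for replicate 2. What this difference adds to ratios between the libraries and to TPM shares of short transcripts was not tested. Since the design holds no second condition, the questions are at which level each regulator was present, as which kinds of transcript, and how closely the libraries match.

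SR proteins carry RNA recognition motifs and a domain rich in arginine and serine, bind exonic enhancers, and help to recruit the spliceosome to nearby splice sites. Proteins of hnRNP particles coat nascent transcripts and often oppose SR proteins at exons and introns, and regulators such as the Mbnl, Celf, Rbfox and Ptbp proteins set splicing in a cell-type-dependent way. Many of these genes control their own output by splicing: too much protein leads to the inclusion of an exon with an early stop codon, called a poison exon, or to a retained intron, and the resulting RNA is held in the nucleus or degraded by nonsense-mediated decay. Retention of introns is known to be widespread in late erythroblasts, and Sf3b1 is among the genes described for it.

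The libraries held 37312624 and 22464724 expected counts in replicates 1 and 2, so that a count of 0 allows up to 0.0804 and 0.134 CPM. Erythroblast markers were all present, with Alas2, which starts heme synthesis, at 3589 and 4077 coding-scaled TPM, a unit in which the nuclear protein-coding genes of each library add up to 1000000. All 7 neutrophil markers were also present at high level, with a sum of 19670 and 19311 coding-scaled TPM and S100a8 at 8719 and 7420. The 9 erythroblast markers summed to 338497 and 301660. Most of that sum came from the globin genes Hba-a2, at 283079 and 235843, and Hbb-bt, at 39662.5 and 48424.5. The highest erythroblast marker besides these globins was Slc4a1, at 6811 and 7957, so outside globin the 2 marker sets were of similar size. The 5 monocyte and macrophage markers summed to 205 and 160, and the 4 megakaryocyte markers to 98.0 and 115. The 3 B cell markers stayed at or below 0.622. The 4 T cell markers summed to 8.09 and 3.34, mostly from Cd3g with 88 and 7 counts, and Cd8a was at 0. The 3 endothelial markers summed to 4.27 and 5.22, all from Pecam1, with Cdh5 and Kdr at 0. What other bone marrow cells added to the values below was not tested, and in bulk RNA fewer cells of a type and less RNA per cell cannot be told apart.

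Of the 40 regulators, 37 were detected, which here requires that the deposited TPM reached 1 in each library, where 20.3% of all nuclear protein-coding genes were. At the lower limit of 1 coding-scaled TPM in each library, 38 of the 40 passed, beside 9417 of 21461 nuclear protein-coding genes. The median regulator stood at 99.6 ± 4.06 coding-scaled TPM (SD, n = 2) against 0.557 ± 0.0332 for all nuclear protein-coding genes, and at percentile 92.3 of the 12895 such genes with a TPM above 0. Together the 40 genes held 0.908% and 1.02% of coding counts. SR genes had a median of 127 and 102 coding-scaled TPM in replicates 1 and 2, hnRNP genes of 109 and 117, and the further regulators of 43.4 and 41.6. The SR and hnRNP medians therefore did not differ beyond the spread between the libraries, while the third median lay below both in each library. The genes not detected were Srsf12, Hnrnph3 and Rbfox2. Exons of 17 members overlap those of another annotated gene, and no member had a posterior spread of its count that marks reads shared with similar sequences.

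**Figure D1:**
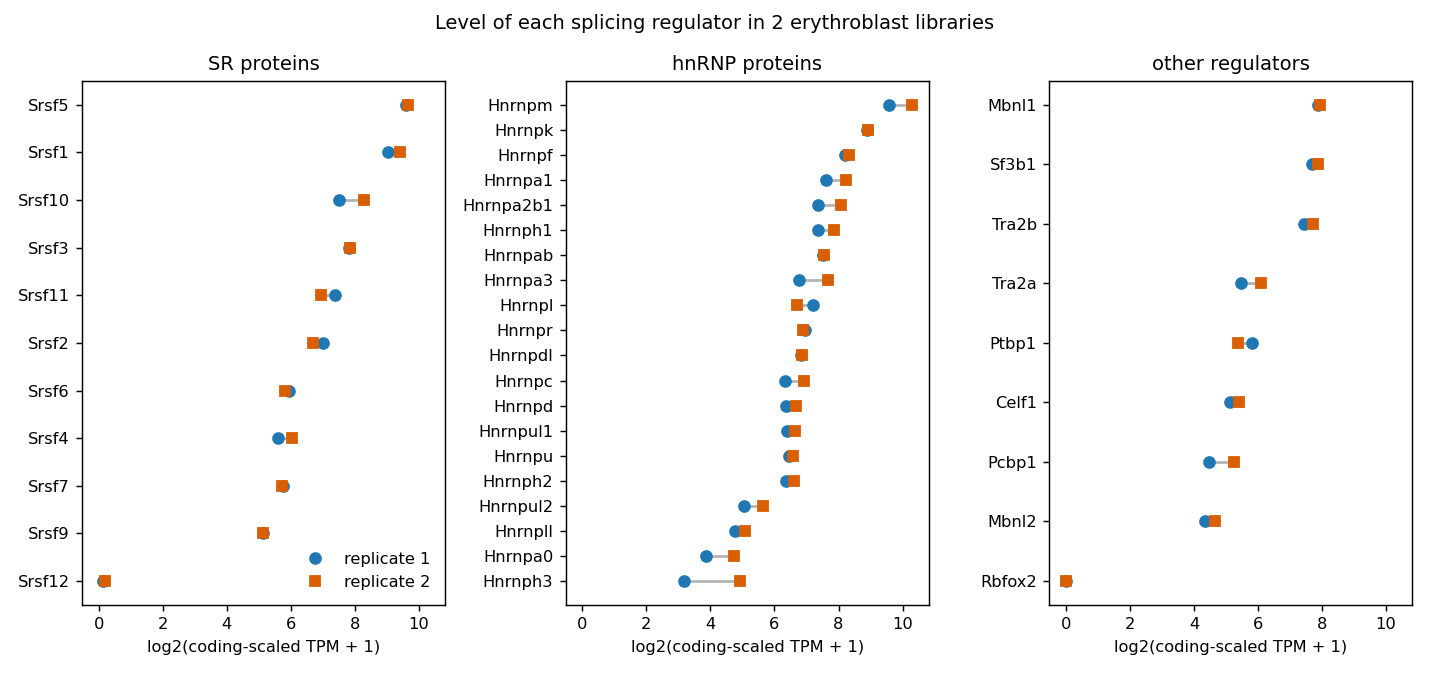
Level of each of the 40 regulators as log2(coding-scaled TPM + 1), with replicate 1 as circles and replicate 2 as squares joined by a line, in 3 panels for SR genes, hnRNP genes and the further regulators. Most genes lie between 4 and 10 on this scale, Srsf5 is highest in replicate 1 and Hnrnpm in replicate 2, and Srsf12 and Rbfox2 sit at or near 0.

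Among SR genes, Srsf5 (chr12:80945504-80950507) was the most abundant, with a level of 772 coding-scaled TPM in replicate 1 and 802 in replicate 2. Srsf1, the founding SR protein, followed at 527 and 677. Srsf10, a regulator that becomes a repressor of splicing when dephosphorylated, stood at 182 and 313, and Srsf3, the smallest SR protein, at 225 and 230, so that their ranges overlap. Srsf11 stood at 167 and 123 and Srsf2, which binds exonic enhancers and releases paused polymerase, at 127 and 102, again with overlapping ranges. The next level held Srsf6 at 60.5 and 55.4, Srsf4 at 47.6 and 64.4, and Srsf7 at 53.2 and 52.1, in no fixed order. Srsf9 was lowest of the detected SR genes at 33.6 in both libraries. Srsf12 had 3 and 4 counts, which is close to the limit of 3 counts in each library.

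A large part of Srsf5 was not annotated as coding. Its leading transcript in both libraries was Srsf5-212, a retained intron transcript of 2720 bases with 10370 and 4628 expected counts, or 52.0% and 43.4% of the gene's counts. The coding transcript Srsf5-202 had 4209 and 2069. Srsf5-212 contains the whole of intron 5 of Srsf5-202, 1229 bases at chr12:80947866-80949094 on the plus strand of GRCm38. The sequences at its ends are shown because this intron sets the class of the leading transcript, with the first and last bases of the intron in capitals (5′ splice site with 3 exon bases before it, 3′ splice site with 3 exon bases after it).
Srsf5 intron 5, 5′ splice site: cagGTttgt
Srsf5 intron 5, 3′ splice site: cataattgtcttgtgttaAGgat
Read in the frame of Srsf5-202, the first stop codon ended at base 9 of the intron. The same intron lies in Srsf5-207 and Srsf5-209, so all 3 retained intron transcripts of this gene share it.

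Srsf11 had the highest retained intron share of the detected regulators, 79.9% and 89.3% of the gene's TPM and 71.2% and 80.5% of its counts. Its retained intron transcripts with most counts were Srsf11-213 with 1391 and 317 counts, Srsf11-207 with 602 and 147, and Srsf11-208 with 577 and 552. In release M21 all 3 have bases in intron 2 of the coding transcript Srsf11-202, though Srsf11-207 has 813 bases in the tables and 1670 in M21, so what the counted transcript contains is not known. Srsf11-208, with the same length in both, has 1988 of its 2415 bases outside every coding exon. Among coding transcripts, Srsf11-202 had 1121 and 95.3 counts and Srsf11-204 had 0 and 178, and the coding share was 27.9% and 19.3% of counts.

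Srsf3 was divided between coding, retained intron and decay transcripts. The coding transcript Srsf3-202 had 2314 and 1816 counts. The decay transcript Srsf3-201 had 2161 and 553 counts, 32.6% and 15.0% of the gene, and was the leading transcript by TPM in replicate 1 alone. The retained intron transcripts Srsf3-204 and Srsf3-205, which in M21 have bases in intron 3, held 32.6% and 35.8% of counts together. The same intron 3 holds exon 4 of Srsf3-201, 456 bases at chr17:29039454-29039909 on the plus strand, which no coding transcript contains. Its sequence is shown up to its first in-frame stop codon, in capitals, since this exon gives the transcript its decay class.
Srsf3-201 exon 4: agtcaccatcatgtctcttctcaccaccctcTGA
Srsf3-201, Srsf3-204 and Srsf3-205 have another length in annotation release M21, from which these sequences come, than in the deposited tables, so the exon and the intron content are those of M21.

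For Srsf1 the answer depended on the unit. The retained intron transcript Srsf1-203 led by TPM, with 39.0% and 31.8%, but held 9.59% and 8.93% of counts, since TPM divides counts by effective length and this transcript has 759 bases against 5362 for the coding transcript Srsf1-205. All of its bases lie in exons of coding transcripts of the gene, so no base is particular to it. The decay transcript Srsf1-204 held 5.87% and 18.2% of TPM. In Srsf2, the retained intron transcript Srsf2-203 had 611 and 456 counts, 26.8% and 34.3% of the gene, and its retained introns lie outside the coding region. Exons of Srsf2 overlap those of Mettl23 by 460 bases and of Mfsd11 by 288 on the opposite strand, and the sources used here do not say whether counting used strand.

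The remaining SR genes were mostly coding. Srsf6 had a coding share of 87.5% and 83.8% of counts and Srsf4 of 75.4% and 91.1%. In Srsf4 the decay transcript Srsf4-204 held 27.6% of TPM in replicate 1 and 4.79% in replicate 2, with 158 and 19.8 counts, so the value of this gene rests on replicate 1. Srsf10 had 63.3% and 80.1% of its TPM in transcripts of the class processed transcript, which have no coding frame, but only 30.3% and 48.0% of its counts, and its coding transcript Srsf10-204 led by counts in both libraries. Srsf9 had 96.6% and 100% of counts in coding transcripts. Srsf7, a gene with a known poison exon, lists only coding transcripts here, so a coding share of 100% is fixed by the listing.

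Hnrnpm, a splicing regulator that binds GU-rich RNA, had the highest mean of the 40 genes (chr17:33646233-33686860), with 755 and 1266 coding-scaled TPM, and lay below Srsf5 in replicate 1. Its value depends on 1 transcript. Hnrnpm-206, annotated as coding, had 13601 and 6339 of the gene's 22343 and 16671 counts, and exons of Hnrnpm overlap March2 by 1169 bases on the same strand through it. March2 had 32764 and 17187 counts. Without Hnrnpm-206 the level of Hnrnpm was 516 and 1050 coding-scaled TPM, which in replicate 1 is below Srsf5 and Srsf1 and in replicate 2 is above both.

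Hnrnpk, which binds C-rich RNA and DNA, stood at 471 and 483 coding-scaled TPM, and Hnrnpf, which binds G-runs, at 295 and 319. Genes whose symbol starts with Hnrnpa, other than Hnrnpa0, are given together. Hnrnpa1 stood at 195 and 303, Hnrnpa2b1 at 165 and 268, Hnrnpa3 at 107 and 201, and Hnrnpab at 183 and 188. Hnrnpa1, Hnrnpa2b1 and Hnrnpa3 were each higher in replicate 2, and each of these ranges overlaps that of at least 1 other. Hnrnph1, a close paralog of Hnrnpf, stood at 163 and 233, and Hnrnph2 at 81.2 and 96.6. Hnrnpl, which binds CA repeats, stood at 148 and 103, and its paralog Hnrnpll, best known from lymphocytes, at 26.0 and 32.6.

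Of the other hnRNP genes, Hnrnpr stood at 124 and 118 coding-scaled TPM and Hnrnpdl at 112 and 115. Hnrnpc, which binds tracts of uridines, stood at 79.1 and 120, Hnrnpd, the AU-rich element binder also called AUF1, at 81.7 and 102, and Hnrnpu, a nuclear scaffold protein, at 86.5 and 94.1. Its relatives Hnrnpul1 and Hnrnpul2 stood at 82.3 and 98.5 and at 32.3 and 48.7. The lowest were Hnrnpa0 at 13.7 and 25.7 and Hnrnph3 at 8.00 and 29.2. Hnrnph3 missed detection with a deposited TPM of 0.9 in replicate 1 against 2.01 in replicate 2.

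Several hnRNP genes carried retained intron transcripts. In Hnrnpk they held 52.4% and 62.2% of TPM and 26.8% and 31.9% of counts. The leading one, Hnrnpk-209, had 1500 and 888 counts and 107 of its 731 bases outside coding exons, in intron 12 of Hnrnpk-201. Hnrnpk-217 had 108 and 349 counts and holds the whole of intron 13, at chr13:58393775-58393852 on the minus strand. Hnrnpa3-205 had 9.57% and 13.7% of the gene's TPM and holds the whole of intron 3 of Hnrnpa3-207, at chr2:75661818-75661895 on the plus strand. Both introns have 78 bases and are shown in full, being among the shortest whole introns kept in these genes, with the first stop codon in the coding frame in capitals.
Hnrnpk intron 13: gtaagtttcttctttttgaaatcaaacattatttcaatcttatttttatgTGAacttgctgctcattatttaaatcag
Hnrnpa3 intron 3: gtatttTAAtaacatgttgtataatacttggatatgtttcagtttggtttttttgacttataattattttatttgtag
Their GC content was 24.4% and 20.5%. Each is read to a stop codon, which ends at base 53 in Hnrnpk and at base 9 in Hnrnpa3.

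Hnrnpl had 53.6% and 66.2% of TPM and 40.7% and 52.8% of counts in retained intron transcripts. The leading one, Hnrnpl-206, had 920 and 393 counts and 1608 of 2275 bases in intron 6 of Hnrnpl-202 outside every coding exon. In Hnrnpll the share was 42.1% and 42.2% of TPM and 47.6% and 46.9% of counts, with Hnrnpll-207 leading at 401 and 197 counts. Hnrnpll-207 has 3559 of its 4651 bases outside coding exons, in intron 6 of Hnrnpll-205. The same intron holds exon 7 of the decay transcript Hnrnpll-203, 83 bases at chr17:80044940-80045022 on the minus strand, printed here to its stop codon in capitals.
Hnrnpll-203 exon 7: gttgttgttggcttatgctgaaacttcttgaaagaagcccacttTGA
Hnrnpll-203 had 0 and 115 expected counts, so its share rests on replicate 2 alone. The 0 is an estimate with a posterior standard deviation of 10.98 and does not show absence.

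In other hnRNP genes the share was high by TPM and low by counts. Hnrnpm had 41.0% and 40.9% by TPM against 9.66% and 11.9% by counts, led by Hnrnpm-203 with 1830 and 1709 counts. Hnrnpm-203 has 636 bases as counted and 2626 in M21, so what the counted transcript contains is not known. Both shares of Hnrnpm also depend on Hnrnpm-206, the coding transcript that overlaps March2, with 13601 and 6339 counts. Hnrnpr had 41.0% and 40.0% against 16.8% and 15.3%, led by Hnrnpr-208, a transcript of 473 bases with 194 and 105 counts. For Hnrnpu, 29.0% and 27.3% stood against 2.76% and 3.02%. The tables list 4 further transcripts of the Hnrnpu gene of release M21 under other gene identifiers, with 3379 and 1905 counts against 7154 and 4094 under Hnrnpu itself, and 2089 and 1398 of these were in decay transcripts. The shares given for Hnrnpu leave these transcripts out. Hnrnpdl had 20.8% and 39.3% by TPM and 8.02% and 17.4% by counts. Hnrnpa1, Hnrnpa2b1, Hnrnpab, Hnrnpa0, Hnrnpc, Hnrnpf, Hnrnph2, Hnrnpul1 and Hnrnpul2 list coding transcripts alone.

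Hnrnpd had the highest mean decay share of the detected members. Decay transcripts held 36.3% and 47.3% of its TPM and 41.2% and 51.9% of its counts, mainly through Hnrnpd-208 with 321 and 234 counts. In replicate 1 a transcript with no class in M21 held more TPM, 39.0% against 5.78% in replicate 2, and coding transcripts held more counts, 43.4% against 36.2%. Hnrnpd-208 includes an exon of 107 bases, at chr5:99962098-99962204, that lies after its stop codon and in no coding transcript. Hnrnph3, below the detection limit in replicate 1, had 34.7% and 31.6% of TPM in decay transcripts. Hnrnph1 stood apart in another class, with 72.0% and 69.5% of TPM and 66.5% and 64.8% of counts in processed transcripts. Its leading transcript by counts was Hnrnph1-205 in replicate 1, with 1512 and 0 counts, and Hnrnph1-204 in replicate 2, with 127 and 1233. Both are processed transcripts, so the class was the same while the transcript was not.

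Of the further regulators, Mbnl1, a muscleblind-like protein with zinc fingers that bind RNA, was the most abundant at 235 and 241 coding-scaled TPM. Sf3b1, the branch point binding subunit of the U2 particle, stood at 207 and 236, and Tra2b, an SR-like activator of splicing, at 172 and 211. Tra2a stood at 43.4 and 67.4, Ptbp1, the polypyrimidine tract repressor, at 55.7 and 40.0, and Celf1, which binds GU-rich RNA, at 33.9 and 41.6, in no fixed order. The poly(C) binding protein gene Pcbp1 stood at 21.2 and 37.1 and Mbnl2 at 19.1 and 24.1. Rbfox2, which binds GCAUG motifs, had 0 counts in both libraries. The file lists 4 coding transcripts for it, of 6564 to 7031 bases, and the limit of 3 counts applies to each library.

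Sf3b1 had 36.4% and 44.4% of its TPM and 25.9% and 26.1% of its counts in retained intron transcripts. Sf3b1-203 led them with 3057 and 1534 counts, against 10498 and 6137 for the coding transcript Sf3b1-201. It holds the whole of intron 4 of Sf3b1-201, 1813 bases at chr1:55014563-55016375 on the minus strand. The ends of this intron are given as for Srsf5, since it carries the retained class of the gene, together with an exon inside it, exon 5 of the decay transcript Sf3b1-208, 56 bases at chr1:55014869-55014924, printed up to its stop codon in capitals.
Sf3b1 intron 4, 5′ splice site: atgGTaatt
Sf3b1 intron 4, 3′ splice site: gttgctgttcttttctgcAGgag
Sf3b1-208 exon 5: gcttctattctgctgctTGA
The first in-frame stop codon of the intron ended at base 143. Sf3b1-208 itself held 8.03% of TPM in replicate 1 and 0% in replicate 2, so it was far below the retained transcript in both libraries.

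Tra2b had retained intron, decay and processed transcripts side by side. Tra2b-203 had 656 and 553 counts with 1198 of its 1376 bases outside coding exons, in intron 1 of Tra2b-204. The decay transcript Tra2b-206 had 567 and 532 counts, 13.7% and 21.6% of the gene, and its exon 2 lies in the same intron, at chr16:22258986-22259261 on the minus strand. Of its 276 bases, those up to the first in-frame stop codon are printed, with the stop in capitals, since inclusion of this exon makes the decay class.
Tra2b-206 exon 2: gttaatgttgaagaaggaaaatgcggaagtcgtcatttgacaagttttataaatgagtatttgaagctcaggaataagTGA
Like Srsf3-201, this transcript differs in length between the releases. Mbnl1 had 23.4% and 25.9% of counts in retained intron transcripts, of which none held more than 7.39% of TPM on average. Ptbp1 had 7.20% and 25.2%, so its libraries differ more than 3-fold in this share. Tra2a, Mbnl2 and Pcbp1 list coding transcripts alone.

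Across the members, retained intron transcripts were the main class beside coding ones. Of the 37 detected regulators, 20 list such a transcript (54.1%), where 49.0% of all detected protein-coding genes do. Over these 20 the median share of TPM was 32.0% and 36.7% in replicates 1 and 2, or 34.3% ± 3.32 (SD, n = 2), beside 16.4% and 19.3% over 2135 detected genes with the same listing. By counts the medians were 17.0% and 24.1%, beside 8.07% and 9.68%. At least 20% of TPM in both libraries was reached by 15 of the 20, where 36.3% of all such genes reached it, and at least 20% of counts by 9, where 21.7% did. The 9 were Srsf2, Srsf3, Srsf5, Srsf11, Hnrnpk, Hnrnpl, Hnrnpll, Mbnl1 and Sf3b1. Hnrnpdl lay just inside the limit by TPM with 20.8% in replicate 1, and Srsf2 just outside with 19.5%.

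The groups differed in what the unit does to them. The 7 SR genes with the class had a median of 34.9% and 36.1% by TPM and 26.8% and 34.3% by counts. In the 9 hnRNP genes it was 41.0% and 40.0% by TPM but 9.66% and 15.3% by counts. The 4 further regulators had 26.4% and 32.6% by TPM and 20.3% and 25.6% by counts. By counts the SR median thus lay above the hnRNP median in both libraries, and by TPM below it. Of the neutrophil markers, 1 of 7 lists a retained intron transcript, Mpo, with 1.24% and 0% of TPM and 0.233% and 0% of counts. Of the erythroblast markers, Alas2, Tfrc and Hba-a2 do. By TPM the share was 14.6% and 25.2% for Alas2, 35.2% and 44.7% for Tfrc, and 0% in both libraries for Hba-a2. By counts it was lower for Alas2, at 2.72% and 5.89%, and for Tfrc, at 10.04% and 18.26%. For Hba-a2 it was 0.00196% and 0.00235% of counts. Nuclear RNA and neutrophil RNA were not measured apart from the rest, and their part in these shares was not tested.

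**Figure D2:**
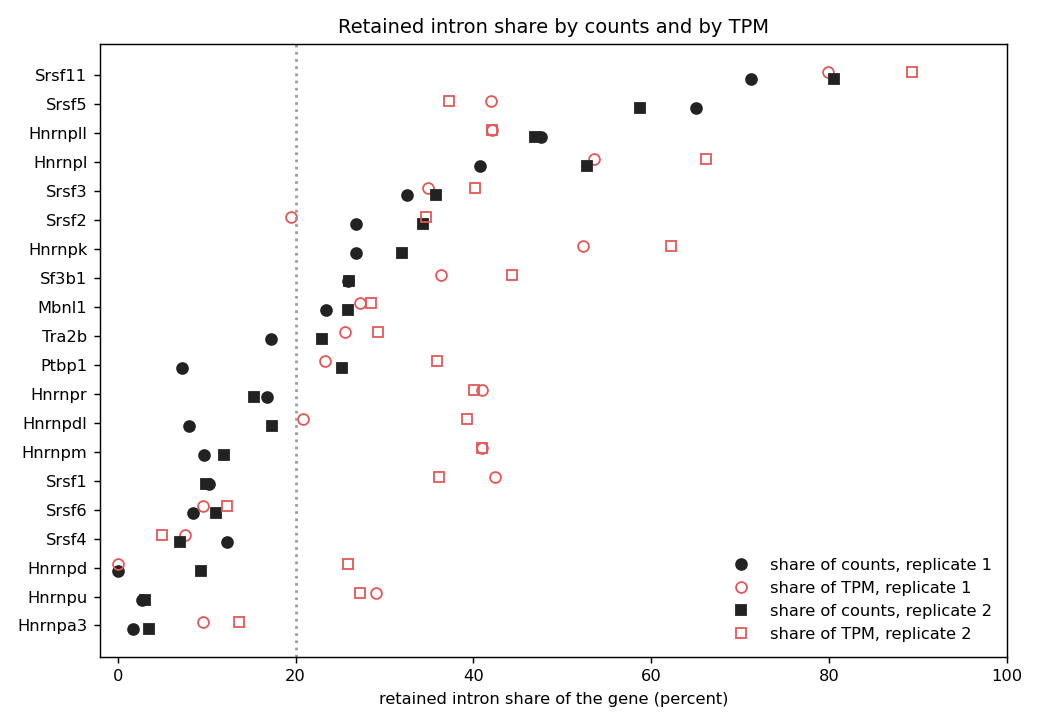
Retained intron share of the 20 detected regulators that list such a transcript, in percent of the gene, with counts as filled and TPM as open symbols, replicate 1 as circles and replicate 2 as squares, and a dotted line at 20%. Srsf11 is highest by both measures, and Hnrnpm, Srsf1 and Hnrnpu lie right of the line by TPM and left of it by counts.

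Decay transcripts were a minor class in most of the 16 detected regulators that list one. Their median share was 4.45% and 5.11% of TPM, beside 2.16% and 3.57% over 1020 detected genes. By counts it was 1.13% and 1.81%, beside 0.958% and 2.03%, so by this measure the members did not stand above the background in replicate 2. Hnrnpd alone reached 20% of TPM in both libraries, 1 of 16, where 13.9% of all such genes did. It was also the only 1 of 16 by counts, where 11.6% did. Hnrnpu is not among the 16, because its decay transcripts, with 2089 and 1398 counts, are listed under another gene identifier. Srsf3 reached 36.6% of TPM in replicate 1 and 17.6% in replicate 2, and Tra2b 15.5% and 22.6%.

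The coding share is what remains. Its median over the 37 detected members was 71.0% and 72.7% of TPM, beside 95.4% and 93.0% over all detected protein-coding genes, and 90.3% and 88.0% of counts beside 98.2% and 97.1%. The listing sets part of this. Of the detected members, 13 list only coding transcripts, and 7 of these have a retained intron transcript in release M21 that the tables do not list. Over the 24 that list a noncoding transcript the median coding share was 56.7% and 54.4% of TPM, beside 75.4% and 71.3% over 2890 genes of that kind, and 73.8% and 73.5% of counts beside 89.4% and 87.2%.

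**Figure D3:**
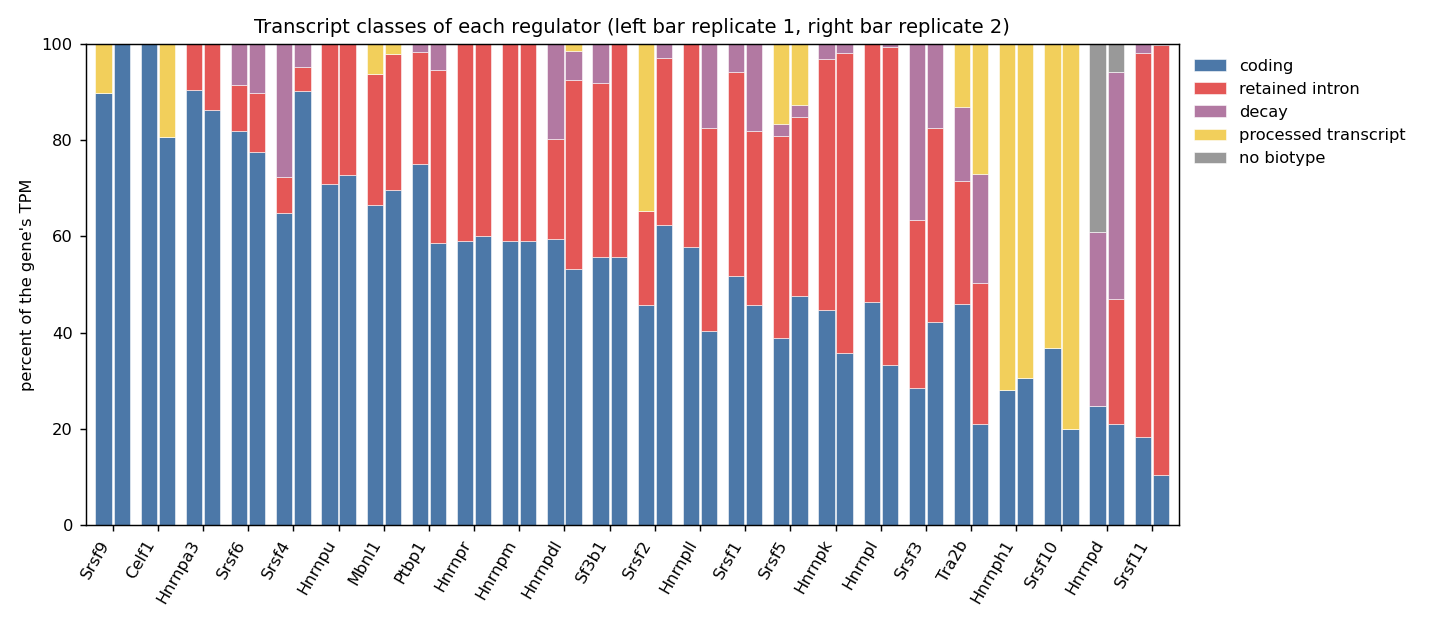
Percent of each gene's TPM by transcript class for the 24 detected regulators that list a noncoding transcript, with a bar for replicate 1 on the left and for replicate 2 on the right of each pair, ordered by mean coding share. Coding transcripts hold most of Srsf9 and Celf1, retained intron transcripts most of Srsf11, and processed transcripts most of Hnrnph1 and Srsf10.

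The transcript that led a gene was noncoding in both libraries for 6 of 37 detected members by TPM, where it was for 9.5% of all detected genes: Srsf1, Srsf5, Srsf11, Hnrnpk, Hnrnpm and Hnrnpr. By counts there were 4, where it was for 4.47% of genes: Srsf5, Srsf11, Hnrnpd and Hnrnph1. Srsf5 and Srsf11 are the members on both lists. Among 32 members with at least 2 listed transcripts, 20 had the same leading transcript by TPM in both libraries, where 67.3% of such genes did, and 26 by counts, where 77.8% did. These counts are near the background. Of the 12 that differed by TPM, 7 differed between coding transcripts. Mbnl1 is an example: Mbnl1-201 had 4041 and 0 counts, and Mbnl1-203 had 792 and 1978. A similar exchange was seen in Hnrnpl, where Hnrnpl-202 had 1126 and 93.7 counts and Hnrnpl-201 had 267 and 402.

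The retained sequence itself was described from release M21. Of 67 retained intron transcripts of detected members, 21 contain a whole intron of a coding transcript, 42 end inside an intron or hold none, and 4 have another length in the tables. A median of 47.6% of their bases lay outside every coding exon of the gene, beside 41.6% for 5824 such transcripts of all detected genes. Whole introns that lie in an exon of another coding transcript were left out, which gave 26 introns with distinct coordinates in 12 member genes. Some overlap each other, as in Srsf2, Srsf5, Srsf6 and Ptbp1, so that shared bases count more than once. The 26 had a median length of 275 bases and a median GC content of 37.2%, beside 259 bases and 49.8% for 2118 introns of 967 genes. By group the median GC content was 39.8% over 11 introns of SR genes, 33.1% over 9 of hnRNP genes and 54.8% over 6 of the further regulators, most of them in Ptbp1. All 26 start with GT and end with AG, as 97.8% of the larger set do. In the coding frame, 19 of 20 introns with a known frame contain a stop codon, where 90.3% of the larger set do. Introns of 1 gene share its base composition, so these medians are descriptions.

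Between the libraries, 38 members had a mean count of at least 100 and could be compared gene by gene. With counts scaled by TMM, a method that sets the bulk of genes equal, 1 of them was at least 2-fold apart, where 8.44% of 7658 protein-coding genes were. It was Hnrnph3, with 182 and 236 counts and a log2 ratio of replicate 2 over replicate 1 of 1.27 (95% interval 0.98 to 1.55). Intervals are exact Clopper-Pearson intervals and cover only counting error, as the labels name no molecular identifiers, and no test is possible with 1 library on each side. Of all genes 3.04% were at least 2-fold higher in replicate 2 and 5.39% in replicate 1.

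The median log2 ratio of the members was 0.15, beside -0.03 over all genes compared, with 26 of 38 above 0 where 47.6% of all genes were. This sign depends on the scaling. By library size alone the member median was -0.01 with 18 above 0, and by the ratio of TPM it was -0.43 with 6 above 0, while the median of all genes moved to -0.19 and -0.68. Relative to all genes the members lay 0.18 higher by scaled counts and 0.25 higher by TPM. Each count scaling shifts all log2 ratios by the same amount, so the 0.18 could not differ between them. By TPM 5 members were at least 2-fold apart, namely Hnrnph3, higher in replicate 2, and Hnrnpl, Ptbp1, Srsf11 and Srsf2, higher in replicate 1, where 29.6% of all genes were. For Srsf2 the scalings point in opposite directions: its deposited TPM was 14.3 and 7.05, while its TMM-scaled counts had a log2 ratio of 0.12 (95% interval 0.02 to 0.22). Between the libraries the levels of the 40 genes correlated with a Pearson's r of 0.978 and a Spearman's rho of 0.964 on the log2(coding-scaled TPM + 1) scale, across genes that are not independent replicates.

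With TMM scaling, the genes whose symbol starts with Hnrnpa, other than Hnrnpab, were among those higher in replicate 2. Hnrnpab was lower there, with 5140 and 2531 counts and a log2 ratio of -0.13 (95% interval -0.20 to -0.06). Hnrnpa2b1 had 7134 and 6983 counts and a log2 ratio of 0.86. Hnrnpa0 had 516 and 502 counts and 0.85, and Hnrnpa1 had 4678 and 3787 and 0.59. Pcbp1, with 529 and 482 counts, had 0.76. Srsf4 and Tra2a were each at 0.59. At the other end Hnrnpl had 3170 and 1104 counts and -0.63, and Srsf11 with 4017 and 1415 and Ptbp1 with 1941 and 684 each had -0.61. The abundant genes Srsf5, Hnrnpk and Srsf3 had ratios of -0.01, 0.00 and 0.05, with intervals that include 0. In all, 31 of the 38 intervals exclude 0, where 5309 of the 7658 protein-coding genes compared have such an interval. Counting error is thus smaller than the difference between these libraries for most members, as it is for most genes compared.

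**Figure D4:**
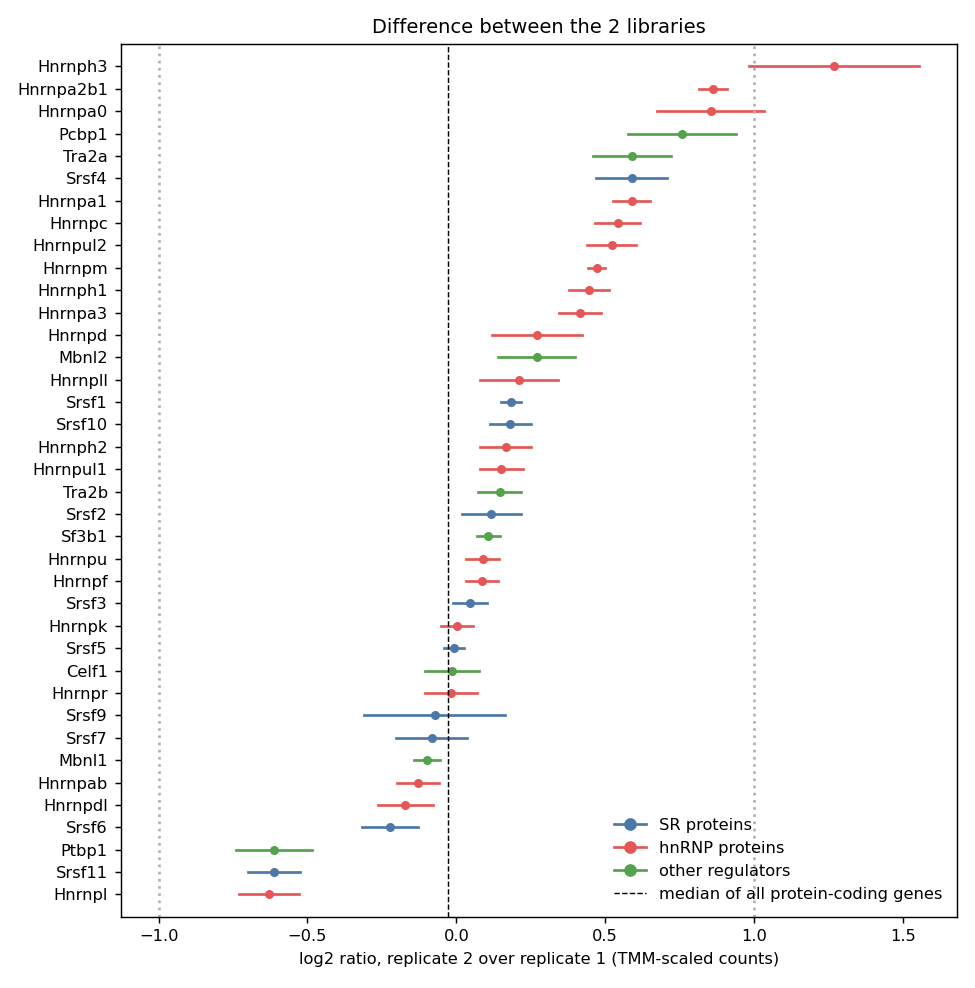
Log2 ratio of replicate 2 over replicate 1 from TMM-scaled counts for the 38 regulators with a mean count of at least 100, with exact 95% intervals for counting error, coloured by group, dotted lines at a 2-fold difference and a dashed line at the median of all protein-coding genes (-0.03). Only Hnrnph3 lies beyond a dotted line, at 1.27, and Hnrnpl, Srsf11 and Ptbp1 form the low end.

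The genes that act with these regulators were taken from 5 fixed lists. Of the 9 genes for SR protein kinases and a phosphatase, 7 were detected, and the list's median was 66.0 ± 4.33 coding-scaled TPM (SD, n = 2). Clk1, a kinase that phosphorylates SR proteins in the nucleus, stood at 1614 and 1884, above every one of the 40 regulators in each library, and 83.9% and 80.2% of its counts were in retained intron transcripts. Its relative Clk4 stood at 197 and 237, with 67.3% and 62.4% of counts in that class, and Clk2 at 25.7 and 49.7, with 35.0% and 54.6%. Srpk1, which acts in the cytoplasm, stood at 21.4 and 18.3 with 12.1% and 8.79%. None of the 8 genes of this list with enough counts was at least 2-fold apart.

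The U1 list had 9 of 9 genes detected and a median of 42.7 ± 5.44 coding-scaled TPM, and the U2 list, which contains Sf3b1, 12 of 15 and 35.4 ± 7.78. Luc7l3, a U1-associated protein, stood at 387 and 431, and Luc7l2 at 175 and 220 with 35.5% and 40.5% of counts in retained intron transcripts. In the U2 list Sf3b1 was the highest gene, and it was the 1 of 4 genes listing the class with at least 20% of counts in both libraries. Of the decay factors 9 of 10 were detected, with a median of 22.1 ± 0.286. Smg6, the endonuclease of the pathway, stood at 166 and 197, and Upf1, its central helicase, at 21.6 and 22.0. Smg9 and Smg5 had 62.8% and 49.7% and 38.5% and 47.2% of counts in retained intron transcripts. They were the high end of this list. Over the 5 detected decay factors with the class the median was 7.03% and 6.18% of counts, beside 8.07% and 9.68% over all such genes.

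Of 18 relatives of the members, 10 were detected. Ptbp3, a paralog of Ptbp1 known from blood cells, stood at 291 and 240 coding-scaled TPM, above Ptbp1 in both libraries, and Ptbp2 at 4.89 and 5.37. Rbfox1 and Rbfox3 had 0 counts, as Rbfox2 did. Mbnl3 stood at 15.8 and 16.0, below Mbnl1 and Mbnl2. Ewsr1, an RNA-binding protein related to hnRNP proteins, stood at 476 and 610. Srrm1, a splicing coactivator, stood at 96.1 and 126 with 21.8% and 28.6% of counts in retained intron transcripts. Over the 7 detected relatives with the class the median was lower, at 2.44% and 5.04% of counts. No gene of these 5 lists with a mean count of at least 100 was at least 2-fold apart between the libraries.

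**Figure D5:**
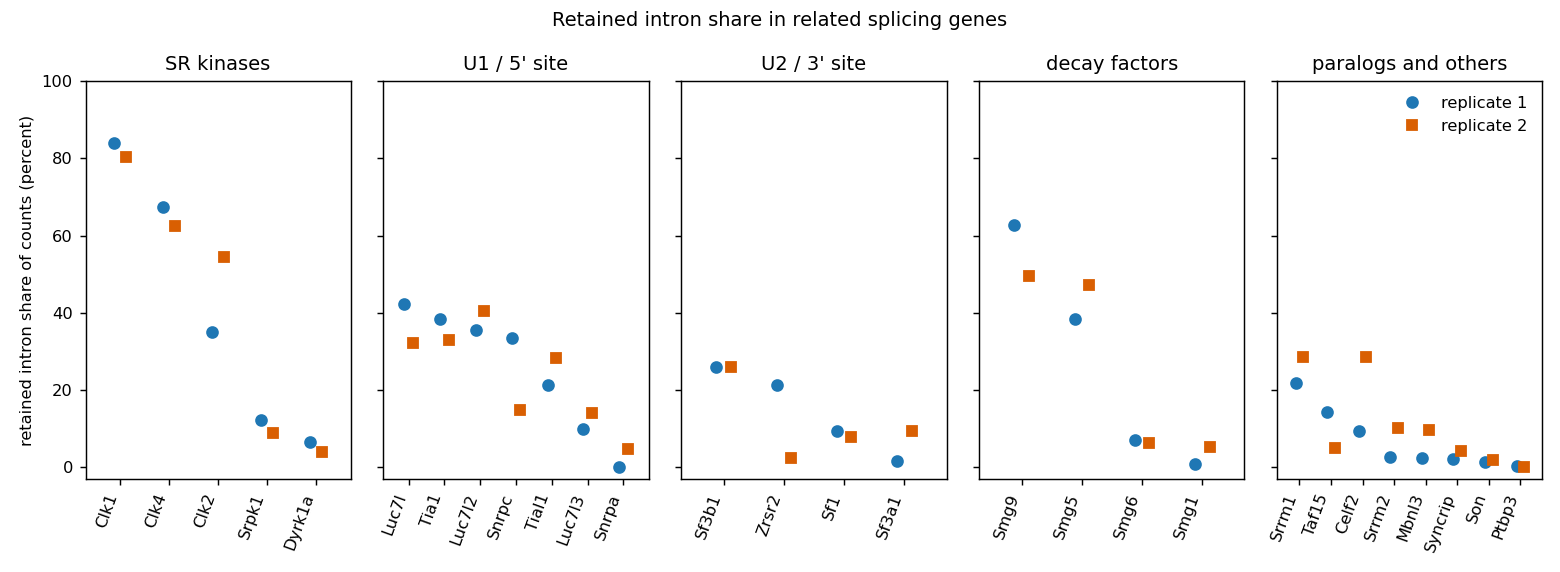
Retained intron share, in percent of the gene's counts, for the genes of the 5 lists with a level of at least 10 coding-scaled TPM in both libraries and a share above 0 in either, with replicate 1 as circles and replicate 2 as squares. Clk1 lies above 80% in both libraries, and Sf3b1, the only member shown, lies at 25.9% and 26.1%.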

How the data were processed

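The authors deposited a gene table and a transcript table for each library. Per the file headers they give expected counts (estimated, not always whole), TPM and, for each transcript, its percent of the TPM of the gene. The posterior standard deviation of a count, a score by the authors per the file headers, served for the check of shared reads, and deposited FPKM was not used. The labels name the assembly mm10, and text records of the deposit name GENCODE M4. Aligner, quantification program and use of strand: not given in the sources used here. GENCODE M21 (GRCm38) gave symbols, transcript classes, coordinates and sequences for 42462 of 43346 Ensembl genes (98.0%) and 288 of 289 member transcripts.

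Deposited TPM was rescaled so that 21461 nuclear protein-coding genes add up to 1000000 (coding-scaled TPM), since they held 11.3% and 6.89% of it. Class shares were summed per gene from the deposited percent and, separately, from counts. Ratios used counts rounded to whole numbers and TMM factors from edgeR 4.0.16 (R 4.3.3) over the whole table, with a mean count of at least 100, and were tested on simulated data. DESeq2 1.42.0 size factors were an alternative. The other steps used Python 3.11.15 with scipy 1.17.1, pandas 2.3.3, numpy 2.4.6 and matplotlib 3.10.9. A member would have been marked as sharing reads with a posterior standard deviation above 3 square roots of its count.

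The rule for names covers every member, with full values for the 3 highest and 2 lowest of each group, members 2-fold apart, those with a noncoding leading transcript, and the 5 with the highest retained intron and decay shares. A gene of the list of relatives is not reported here. Members and lists were chosen with earlier results of these data known. Genes beyond this rule were named after their values were seen.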

Additional observations from a re-analysis of the deposited data

How the results depend on the processing

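Of 68 alternative values, 49 stayed close to the reported ones and 19 moved. For median levels and shares, close meant within the SD between the libraries. Their values with a replicate left out could therefore only stay close, and the Hnrnph3 ratios were given no limit to cross. Part of the 49 was thus fixed in advance. With globins left out of the scaling, median levels were 179.8 (SR), 176.2 (hnRNP) and 66.41 (further regulators) coding-scaled TPM. With posterior mean TPM the further regulators had 44.25, the median decay share was 5.475% and the median coding share 69.95%. With a gene count of at least 100 in both libraries these shares were 5.645% and 69.92%. By counts the median shares were 20.56% (retained intron), 1.471% (decay) and 89.19% (coding), and 9 members had at least 20% in retained intron transcripts. With processed transcripts added, the median retained intron share was 38.82%. Among detected genes only, the median percentile was 77.31. The median log2 ratio was -0.01224 by library size alone and -0.4319 by TPM, so its sign turned, with 5 members at least 2-fold apart by TPM, among them Srsf2 against the direction of its count ratio. Leaving out each replicate gave a median percentile of 91.88 to 92.03, 37 to 38 members detected, SR medians of 102.3 to 126.9, hnRNP medians of 109.4 to 116.7, retained intron shares of 31.98% to 36.67% and 15 to 17 members at 20% or more. Chosen after seeing the data were 3 alternatives. Retained intron transcripts with at least 100 bases outside coding exons gave a median share of 32.03% and 14 members at 20% or more, without Srsf1. The hnRNP median without Hnrnpm-206 was 113.0. Hnrnpm stayed far above that median without this transcript, at 515.9 and 1050 coding-scaled TPM, so this median could not move. No paired analysis was possible because the labels give 1 group, and ratios between the libraries cannot be had without either one. At 22464724 counts in the shallower library, shares of genes with few counts, such as Hnrnph3 or Srsf4-204, rest on few reads.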
